A study of Mus musculus with 8 samples.

Results

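The cytochrome P450 genes were followed in the pancreas of pre-diabetic NOD mice. They were taken as every non-control probe whose gene name was Cyp followed by a family number, a letter and a gene number, with *Cyp21a1* left out. This gave 71 genes on 103 probes, out of 21597 gene symbols on 34850 probes, and 27 of the genes had more than 1 probe. Each gene was represented by its brightest probe.

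Total RNA from the whole pancreas of 8 individual female NOD mice (NOD/LtJ, 12 weeks old) was labelled with the red dye Cy5. On each array it was set against Cy3-labelled (green) RNA from a pool of 8 female NOD.B10 mice of the same age (NOD.B10Sn-H2b/J, which carry the H2b haplotype on the NOD background and do not develop diabetes). NOD mice of this age carry insulitis, an infiltrate of leukocytes around and in the islets. The comparison asks which genes differ between pre-diabetic and diabetes-resistant pancreas. The control side was pooled, so its spread between animals was not measured, and no array carried the dyes the other way round, so at a given probe a dye effect and a strain difference cannot be told apart. Values below are log2 ratios of NOD to pool, where 1 is a 2-fold higher and -1 a 2-fold lower red signal.

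Cytochrome P450 enzymes are heme proteins that insert an oxygen atom into small molecules, using electrons handed on by NADPH-cytochrome P450 reductase in the endoplasmic reticulum or by ferredoxin in mitochondria. Members of the *Cyp1*, *Cyp2* and *Cyp3* families clear drugs and other foreign compounds and are best known from liver, and the *Cyp4* family oxidizes fatty acids and eicosanoids. Most of the remaining families make or break down steroid hormones, bile acids, retinoic acid and vitamin D. In the pancreas, P450 enzymes of the drug-metabolizing families are known from both acinar and islet cells at levels well below those of liver.

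Signal in the pool was more often found for these genes than signal in the NOD mice. Of the 71 genes, 20 (28.2%) had signal well above background in both dyes on at least 4 of the 8 arrays, against 44.2% of all genes on the array. Another 34 (47.9%) were seen only in green, which means that green was well above background on at least 4 arrays and red on at most 3, against 26.6% of all genes. For 25 of these 34 the red signal was well above background on no array. The last 17 genes (23.9%) had green signal on fewer than 4 arrays and red signal on none, against 29.2% of all genes with green on fewer than 4 arrays. Where a dye did not exceed background, the deposited files hold a stand-in value in place of a measured one. For the 71 genes 114 of 568 log ratios are listed at 0, of which 40 had stand-ins in both dyes and 74 had a red stand-in that was not below the measured green signal. A log ratio of 0 is therefore no measurement of equal signals. At least 4 of the 8 red values were stand-ins for 18 of the 34 genes seen only in green, and all 8 for 3 of them. Over whole arrays, red was well above background on 21.6% to 35.3% of spots and green on 57.6% to 60.7%. Red thus cleared background on fewer spots of the whole array, and the part of this in the split of the *Cyp* genes was not tested.

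**Figure D1:**
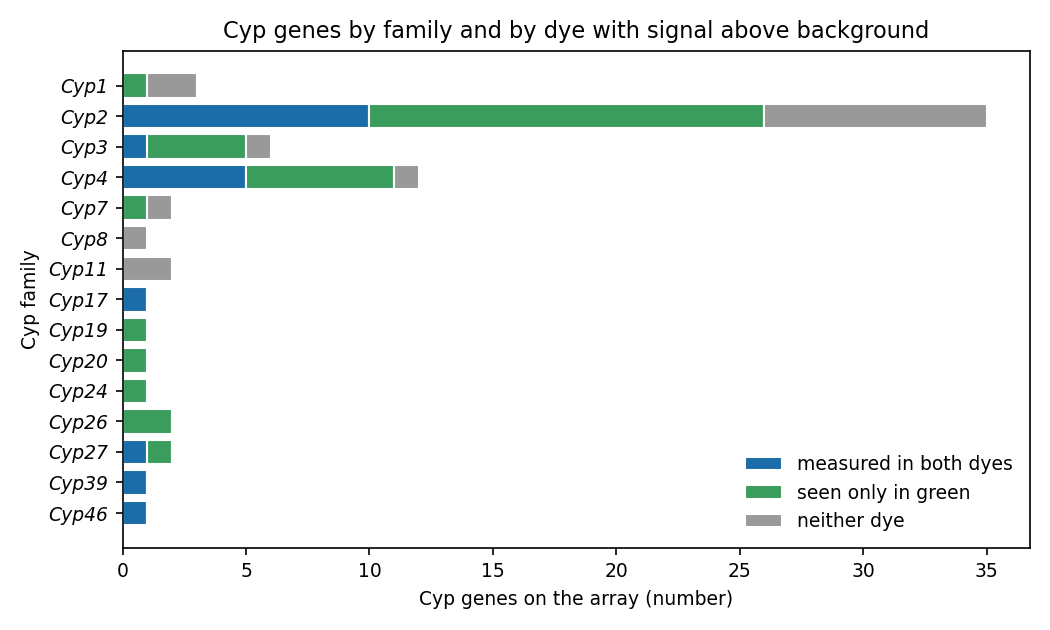
Number of *Cyp* genes on the array in each family (horizontal bars), split by the dye with signal well above background on at least 4 of 8 arrays. The *Cyp2* family holds 35 genes, of which 10 were measured in both dyes and 16 only in green, and the *Cyp3* family holds 6 genes, of which 1 was measured in both dyes and 4 only in green.

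By family, the *Cyp4* family had 5 genes in both dyes, 6 only in green and 1 in neither. *Cyp17a1*, *Cyp39a1* and *Cyp46a1*, each the single member of its family on the array, were measured in both dyes. *Cyp19a1*, *Cyp20a1*, *Cyp24a1* and both *Cyp26* genes were seen only in green, and *Cyp8b1* and both *Cyp11* genes in neither dye. Mean green signals ran from 124 to 6404 among the genes in both dyes, from 38.0 to 563 among those seen only in green and from 9.62 to 37.3 among the rest. Signals of different probes depend on the probe and are not levels of transcript that can be ranked.

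**Figure D2:**
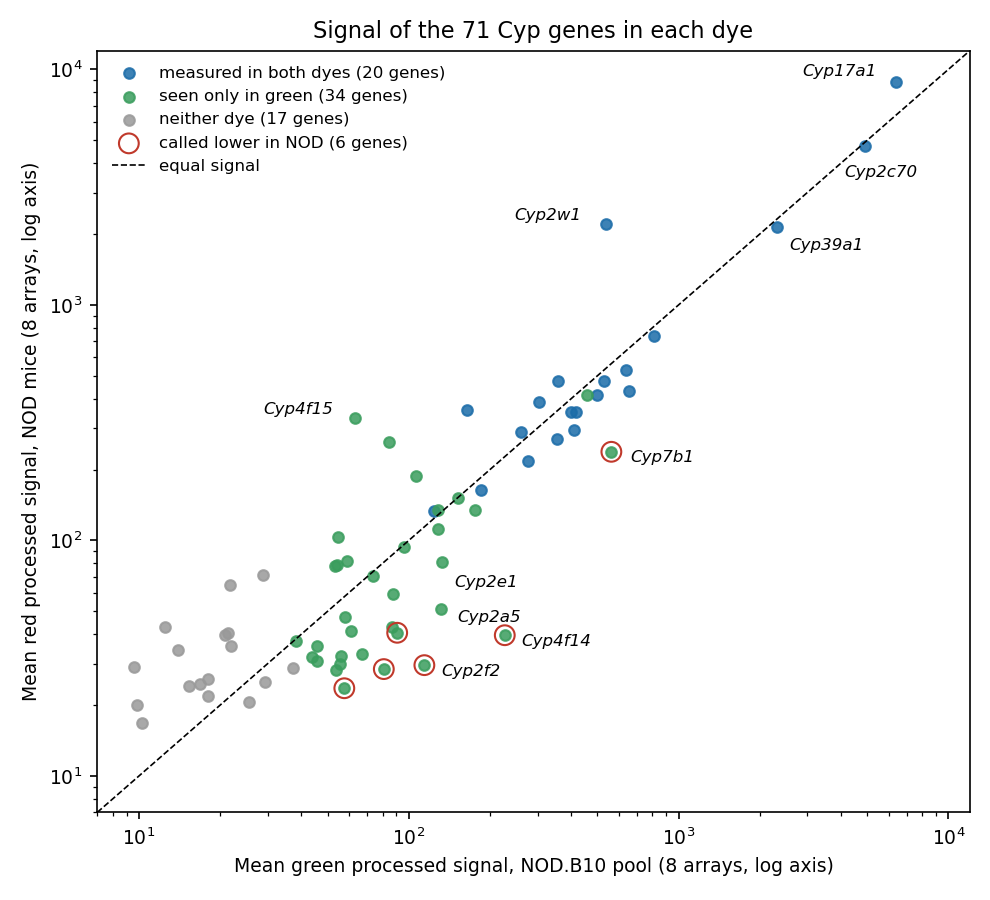
Mean processed signal of each of the 71 *Cyp* genes over 8 arrays, green (NOD.B10 pool) on the horizontal and red (NOD mice) on the vertical axis, both log axes without units. The 6 circled genes called lower in NOD all lie below the line of equal signal, and *Cyp17a1*, *Cyp2c70* and *Cyp39a1* at the upper right are the brightest of the genes in both dyes.

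On the deposited scale no *Cyp* gene rose and 6 fell by the criterion of at least 2-fold and a limma adjusted p below 0.01. The 6 were *Cyp4f14*, *Cyp2f2*, *Cyp2c40*, *Cyp3a44*, *Cyp7b1* and *Cyp3a11*. The test covered the 63 *Cyp* genes with a red processed signal of at least 25 on at least 4 arrays, and Benjamini-Hochberg adjustment ran over all 28105 tested probes. The 6 genes were 9.52% of those tested, while 1.3% of all 18396 genes tested were called lower. For the higher direction the count was 0, with 0.391% of all genes called. At an unadjusted limma p below 0.05 there were 30 of the 63 genes in either direction (36% of all genes), and at an adjusted p below 0.05 with no limit on fold there were 15 lower (14.4% of all genes) and 4 higher (7.01% of all genes). All 6 called genes belonged to the class seen only in green, where they were 6 of 34 (17.6%) beside 3.89% of 5624 such genes overall. That class has a weak red signal by its definition. With red required to be well above background on at least 4 arrays no *Cyp* gene was called lower and 1 of 20, *Cyp2w1*, was called higher, beside 0.346% and 0.828% of all 9544 genes tested under that filter. The count of higher calls depended on the scaling. After median centering of the arrays 6 *Cyp* genes were called lower and 11 higher, beside 5.09% lower and 17.8% higher of all genes. Of the 11, 8 were genes of the class with neither dye, with red stand-ins on 7 or 8 arrays, and the others were *Cyp2a4*, *Cyp2w1* and *Cyp4f15*. With the ratio of processed signals 9 were called lower and 6 higher, beside 2.19% and 10.5% of all genes.

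The median log2 ratio of the 63 tested genes was -0.25 on the deposited scale, beside -0.08 for all genes tested. After centering each array on its spots well above background the same medians were 0.04 and 0.02, which moved the median of all genes by 0.10 and left the *Cyp* median 0.02 above it in place of 0.17 below. Split by class, the median was -0.18 for the 20 genes in both dyes (all genes of that class -0.06) and -0.51 for the 34 seen only in green (all genes of that class -0.38). The deposited mean was below 0 for 46 of the 63 genes and above 0 for 15. The share of all tested genes below 0 is not given. Over all *Cyp* genes, tested or not, 74 values had a stand-in in red only that was not below green. All 74 were listed at 0. Another 160 had a stand-in in red only that was below green, and none of these was listed at 0. Such values could thus be lower but not higher than the pool, and the part of this in the count was not tested.

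*Cyp4f14*, a fatty acid and eicosanoid hydroxylase of the *Cyp4f* cluster (probe at chr17:32643687-32643746 on mm8), fell in every mouse. Its green signal was 190 at the lowest, 226 at the median and 262 at the highest, and its red signal was 23.9, 38.8 and 68.5. The highest red value stood well under the lowest green value, so that the dyes did not overlap. The green values are repeated readings of the same pool. How many genes on the whole array lie apart in this way is not given. The ratio averaged -2.59 (SD over 8 mice 0.600, limma adjusted p = 0.000496), and it was negative in 8 of 8 mice with a range of -3.34 to -1.66. Red was well above background on no array and a stand-in on 4 arrays.

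*Cyp2f2*, best known as a naphthalene-activating enzyme of the airway and also present in liver, fell as well. Green ran from 95.1 through a median of 114 to 139, and red from 16.6 through 26.6 to 48.2, again with no overlap. The ratio averaged -2.03 (SD over 8 mice 0.617, limma adjusted p = 0.00131). All 8 red values were stand-ins, so this ratio compares a measured pool signal with an estimate of the detection limit in every mouse.

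*Cyp2c40*, an arachidonic acid-metabolizing member of the large *Cyp2c* cluster on chromosome 19, fell to a ratio of -1.52 on average (SD over 8 mice 0.476, limma adjusted p = 0.00142). Its green signal was between 63.5 and 99.1 and its red signal between 20.4 and 39.9, with stand-ins on 5 arrays. After median centering of the arrays the mean was -0.73 and the call was lost (limma adjusted p = 0.0195), and its dimmer probe, which was not tested, was listed at 0 on all 8 arrays. Its transcript is 98.0% identical to that of *Cyp2c68*, which is not among the 71 genes, and the probe's position does not tell which of them it reports.

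*Cyp3a44* and *Cyp3a11* both fell. They belong to the *Cyp3a* subfamily, and *Cyp3a11* is the main drug-clearing P450 of that subfamily in mouse liver. *Cyp3a44* had green signals of 44.0 to 69.1, red signals of 13.3 to 33.0 and an average ratio of -1.33 (SD over 8 mice 0.565, limma adjusted p = 0.00401), with red stand-ins on 7 arrays. After median centering *Cyp3a44* was at -0.13 and no longer called (limma adjusted p = 0.705), and its dimmer probe, which was not tested, was at 0.29. *Cyp3a11* had green signals of 75.9 to 116, red signals of 25.5 to 68.7 and an average of -1.24 (SD over 8 mice 0.621, limma adjusted p = 0.00731), with stand-ins on 6 arrays. The mouse of replicate 7 was nearly level with the pool for *Cyp3a11* at -0.14, and the other mice lay between -1.90 and -0.56. Transcripts of these genes are 94.96% and 94.74% identical to that of *Cyp3a41a*.

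*Cyp7b1*, which hydroxylates oxysterols on the way to bile acids and also dehydroepiandrosterone, was the called gene with the firmest red signal. Green was 387 at the lowest, 569 at the median and 689 at the highest, and red was 146, 246 and 286, with no stand-in value and with red well above background on 3 arrays. The ratio averaged -1.25 (SD over 8 mice 0.507, limma adjusted p = 0.00339), and the mice ran from -2.06 (replicate 3) to -0.44 (replicate 8).

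**Figure D3:**
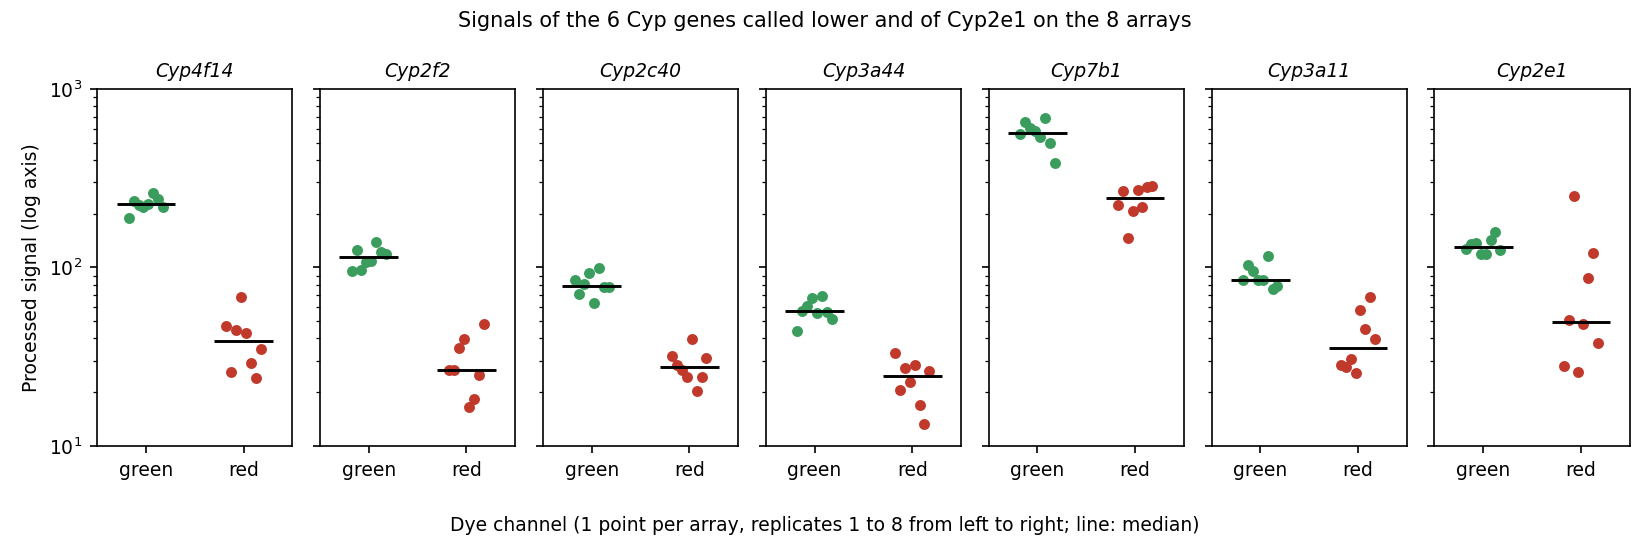
Processed signal (log axis, no unit) of the 6 *Cyp* genes called lower and of *Cyp2e1*, with green points for the NOD.B10 pool and red points for the NOD mice, 1 point per array, and a line at the median of 8 arrays. Green and red points do not overlap for *Cyp4f14*, *Cyp2f2*, *Cyp2c40*, *Cyp3a44*, *Cyp3a11* and *Cyp7b1*, while for *Cyp2e1* 1 red point, at 250, lies above all green points. The 6 genes were chosen as called lower, and the share of all genes that lie apart in this way is not given. Many red points are stand-ins, on all 8 arrays for *Cyp2f2* and on 7 for *Cyp3a44*.

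Each of the 6 was lower in 8 of 8 mice. For each an exact two-sided sign-flip permutation test over the 8 arrays gave p = 0.00781, the smallest that their sign patterns allow. The 6 were picked by these same ratios, so the test adds no support of its own. A red stand-in not below green gave a log ratio of 0, so an array with a red stand-in could not show a higher NOD value. Red was a stand-in on 8 arrays for *Cyp2f2*, 7 for *Cyp3a44*, 6 for *Cyp3a11*, 5 for *Cyp2c40* and 4 for *Cyp4f14*. *Cyp4f14*, *Cyp2f2* and *Cyp2c40* were called lower whichever mouse was left out. *Cyp7b1* was called in 5 of these 8 fits, *Cyp3a44* in 2, where it was tested in 4 of the 8, and *Cyp3a11* in 1. After median centering 4 of the 6 were still called, *Cyp2c40* and *Cyp3a44* being the exceptions, and *Cyp2a5* and *Cyp20a1* were called lower in addition. With normexp background correction and loess normalization, which adds an offset of 50 to both dyes, the log2 ratios of the 6 were between -0.45 and -0.09 and no *Cyp* gene was called, and over the whole array 18 genes (0.0978%) were called lower under that setting in place of 239, and 0.228% were called higher.

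Several hepatocyte markers were called lower as well, and whether they varied with the *Cyp* genes from mouse to mouse was not tested. Of 13 hepatocyte markers on the array, 8 were called lower, with a median log2 ratio of -1.42, beside 1.3% of all tested genes and 3.89% of those seen only in green, the class of 9 of the 13. After median centering 8 were called lower again (5.09% of all genes), and with normexp and loess 2 (0.0978%). With red required to be well above background 2 of the 4 that could be tested were called lower (0.346%). The markers called lower included fibrinogen gamma *Fgg* at -4.00, the fatty acid binding protein *Fabp1* at -3.95, *Ahsg* at -3.21 and the albumin gene *Alb1* at -2.31 on the deposited scale. The summed red signal of the 13 markers was 1510 to 3246 over the 8 mice. The summed green signal was 5778 to 8593 over 8 readings of the same pool, so its range is not one between control animals. The share of gene sets whose sums lie apart in this way is not given. For 9 of the 13 red was well above background on no array. *Tat*, another liver enzyme gene, was at 0.13 and was measured in both dyes on all arrays. Among the markers of other cell types, 1 of 5 tested enterocyte genes (*Vil1*) was called lower and none of 8 adipocyte, 6 adrenal cortex, 6 acinar, 5 duct, 6 islet or 7 leukocyte genes was called. After median centering 4 leukocyte, 2 enterocyte, 2 adrenal cortex, 1 acinar and 1 adipocyte gene were called higher, and 2 islet and 1 adipocyte gene lower. Under that setting 17.8% of all genes were called higher and 5.09% lower. With normexp and loess 5 of the 6 acinar genes were called higher, at a median of 1.48, beside 0.228% of all genes. With red required to be well above background 2 of 4 leukocyte genes were, beside 0.828% of all genes. With the ratio of processed signals 4 leukocyte, 1 enterocyte and 1 adrenal cortex gene were called higher and 1 enterocyte gene lower. Of all genes 10.5% were higher and 2.19% lower under that setting. On the deposited scale the median log2 ratios were -0.24 for enterocyte, -0.79 for adipocyte, 0.27 for adrenal cortex, 0.15 for acinar, -0.10 for duct, -0.49 for islet and 1.01 for leukocyte genes. The part of these cell types in the *Cyp* ratios was not tested, and in whole pancreas fewer cells of a type and less RNA per cell cannot be told apart.

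Several of the genes that fell belong to liver-type subfamilies, so their promoters were searched for a motif of the liver nuclear receptor HNF4, CAAAGTCCA, on both strands of the 250 bases upstream of the gene start (RefSeq, GRCm38.p6). A RefSeq promoter was matched for 54 of the 71 genes. The motif was present in 7 of the 54 (12.96%), against 0.451% of 27025 promoters of all genes, and *Cyp2c40* and *Cyp3a11* of the called genes were among the 7. The match is a description of these letters and not of binding. The windows below give the motif in capitals with 20 bases on each side, 5′ to 3′ on the strand of the gene, to show how closely related promoters share it.
*Cyp2c40*, chr19:39812831-39812879, minus strand: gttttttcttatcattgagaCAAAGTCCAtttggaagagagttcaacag
*Cyp3a11*, chr5:145879935-145879983, minus strand: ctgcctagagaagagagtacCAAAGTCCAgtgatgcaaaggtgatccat
*Cyp3a16*, chr5:145469794-145469842, minus strand: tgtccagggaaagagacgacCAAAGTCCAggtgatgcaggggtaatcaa
*Cyp3a41*, chr5:145720203-145720251, minus strand: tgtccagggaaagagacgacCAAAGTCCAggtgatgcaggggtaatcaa
*Cyp2c70*, chr19:40187322-40187370, minus strand: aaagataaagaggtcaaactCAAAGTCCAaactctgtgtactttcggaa
*Cyp2c65*, chr19:39060870-39060918, plus strand: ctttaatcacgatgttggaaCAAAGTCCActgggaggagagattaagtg
*Cyp8b1*, chr9:121916344-121916392, minus strand: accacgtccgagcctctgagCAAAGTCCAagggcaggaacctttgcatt

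The motif lay on the strand of the gene in all 7. The *Cyp3a16* and *Cyp3a41* windows are the same over their whole length, and these genes had log2 ratios of -0.84 and -0.46, while *Cyp3a11* of the same subfamily was at -1.24. *Cyp2c70* carries the motif and stood at -0.08 in both dyes, and *Cyp2c65* and *Cyp8b1* carry it and were in the class with neither dye. *Hnf4a* itself was measured in both dyes with a mean log2 ratio of 0.73 (SD 0.288, limma adjusted p = 0.00327, under the 2-fold limit). The TATA motif TATAAA was found in 23 of the 54 promoters (42.6%; all promoters 14.3%), among them those of *Cyp2e1*, *Cyp3a11* and *Cyp3a44*. The core GCGTG bound by the dioxin receptor was found in 11 (20.4%; all promoters 30.9%), among them those of *Cyp1a1*, *Cyp1b1*, *Cyp4f14* and *Cyp2w1*. The long motif of HNF1 and the direct repeat with a spacer of 1 base bound by HNF4 occurred in none of the 54, and in 0.0740% and 0.0407% of all promoters. In all of these searches both strands were read, and none of the motifs was required to be free of overlap with another.

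*Cyp2e1*, the ethanol-inducible P450 that also oxidizes acetone and other ketones, was seen in the pool on every array, with green signals of 118, 131 and 157 at the lowest, median and highest. Its red signal was 25.9, 49.4 and 250, and was well above background on 1 array and a stand-in on 4. The mouse of replicate 3 stood apart with a log2 ratio of 0.88, and the other 7 mice lay between -2.20 and -0.39. The mean of -1.13 (SD 1.03, n = 8 mice) did not pass the test, with a limma adjusted p of 0.0577. Without replicate 3 the mean was -1.42 with a limma adjusted p of 0.0158. Over all 8 mice the mean was -0.87 after median centering (limma adjusted p = 0.0148) and -0.045 with normexp and loess (limma adjusted p = 0.495).

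The genes just inside and outside the limits were close to each other. *Cyp2a5*, which oxidizes coumarin and nicotine, had a mean log2 ratio of -1.55 and a limma adjusted p of 0.0101, and was called lower without replicate 7, which stood at 0.21 while the other mice lay between -2.46 and -0.95. *Cyp2u1*, a fatty acid hydroxylase, was at -1.15 (limma adjusted p = 0.0125), and *Cyp3a16* at -0.84 (limma adjusted p = 0.0107). *Cyp2c29* was at -0.95 with a limma adjusted p of 0.00635, under the fold limit, but its red value was a stand-in on all 8 arrays. Red was a stand-in on 6 arrays for *Cyp2a5* and *Cyp3a16* and on 3 for *Cyp2u1*.

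Probes of the *Cyp2a* genes went apart. The brightest *Cyp2a4* probe, placed at chr7:26022400-26023465, had a mean log2 ratio of 0.98 (SD 0.509, limma adjusted p = 0.00822) and was higher in 7 of 8 mice. The other *Cyp2a4* probes, at chr7:26023713-26023772 and chr7:26023673-26023732, were called lower at -1.47 and -1.24, each in 8 of 8 mice. *Cyp2a4* encodes a testosterone hydroxylase whose transcript is 98.2% identical to that of *Cyp2a5*. The single *Cyp2a5* probe lay with the pair of *Cyp2a4* probes that fell. Over all *Cyp* probes, 10 of 79 tested were called lower and 0 higher, beside 1.41% and 0.31% of all 28105 probes tested, and beside the 6 brightest and the pair for *Cyp2a4* these were a second probe each for *Cyp2d10* (-1.02, its brightest probe -0.46) and *Cyp2d22* (-1.28, its brightest probe -0.20). Of 70 genes with a transcript sequence, 19 had another *Cyp* transcript at least 90% identical over at least 80% of its length, and 11 at least 95% identical, and whether their probes share signal was not tested.

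The 20 genes measured in both dyes have by definition a red signal well above background on at least 4 arrays. Their mean log2 ratios lay between -0.71 and 1.61, with 14 below 0 and 6 above on the deposited scale, and none was called. The brightest was *Cyp17a1*, a steroid hydroxylase and lyase on the path to androgens. Its green signal was 5312 at the lowest, 6243 at the median and 8474 at the highest, and its red signal was 5527, 7196 and 16845. Replicate 6 held the highest red value. The mean log2 ratio was 0.37 (SD 0.401, limma adjusted p = 0.0939) on the deposited scale but -0.43 after median centering and -0.40 with normexp and loess, so the sign depended on the scaling. The electron donor of mitochondrial steroid P450 enzymes, *Fdx1*, was at 0.54 (limma adjusted p = 0.00182).

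*Cyp2c70*, which makes muricholic acids in mouse bile acid synthesis, had green signals of 3955 to 6394 and red signals of 3157 to 6622, and the dyes overlapped. Its mean log2 ratio was -0.08 (SD 0.391, limma adjusted p = 0.696). *Cyp39a1*, an oxysterol hydroxylase of bile acid synthesis, was at -0.15 (SD 0.285), and its second probe, also measured in both dyes, was at -0.33 (SD 0.275, limma adjusted p = 0.0448). *Cyp2j6* was at -0.17, *Cyp4f13* at -0.18, *Cyp4f18* at -0.20 and *Cyp4a10* at -0.21. The means of *Cyp2j6*, *Cyp4f13* and *Cyp4a10* turned positive after median centering, at 0.10, 0.09 and 0.32.

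*Cyp2s1*, a P450 of epithelia outside the liver, had the lowest mean of the 20 on the deposited scale at -0.71 (SD 0.702, limma adjusted p = 0.0739). It was below the pool in 7 mice and above it, at 0.65, in replicate 8. Its green signal of 547 to 769 overlapped the red signal of 216 to 861. *Cyp2d26* was lower in 8 of 8 mice at a mean of -0.60 (limma adjusted p = 0.101), with replicate 8 at -2.21 and the others between -0.59 and -0.13. Without replicate 8 the mean of *Cyp2d26* was -0.37 (limma adjusted p = 0.00862). *Cyp2d9* was lower in 8 of 8 mice by a smaller amount, -0.34 (SD 0.275, limma adjusted p = 0.0398), and was at 0.00 after median centering and 0.01 with normexp and loess. *Cyp4v3*, a fatty acid hydroxylase, was at -0.44 and *Cyp2c37* at -0.45, with limma adjusted p of 0.0659 and 0.0679. *Cyp3a41* was at -0.46 and *Cyp4a12* at -0.31 (limma adjusted p = 0.172 and 0.188), and *Cyp46a1*, a cholesterol hydroxylase known from brain, at -0.12. On the other side of 0, *Cyp2b13* was at 0.43 (limma adjusted p = 0.0302, higher in 7 of 8 mice), *Cyp27b1*, which activates vitamin D, at 0.11 and *Cyp2c55* at 0.07. After median centering *Cyp27b1* was at -0.51 and *Cyp2c55* at 0.87 (limma adjusted p = 0.174 and 0.0179).

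*Cyp2w1*, a P450 known from fetal gut and tumours, had the highest mean of the 20 on the deposited scale. Its green signal was 389, 532 and 712 for the lowest, median and highest, and its red signal was 531, 1378 and 4341. The log2 ratio was above 0 in every one of the 8 mice and averaged 1.61 (SD 1.19, limma adjusted p = 0.0291), which missed the limit of 0.01. The mice differed by slide. Replicates 1 to 4, on the first slide, ran from 0.20 to 0.92 with a mean of 0.58, and replicates 5 to 8, on the second slide, from 1.85 to 3.12 with a mean of 2.64. With the slide as a covariate *Cyp2w1* was called higher.

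**Figure D4:**
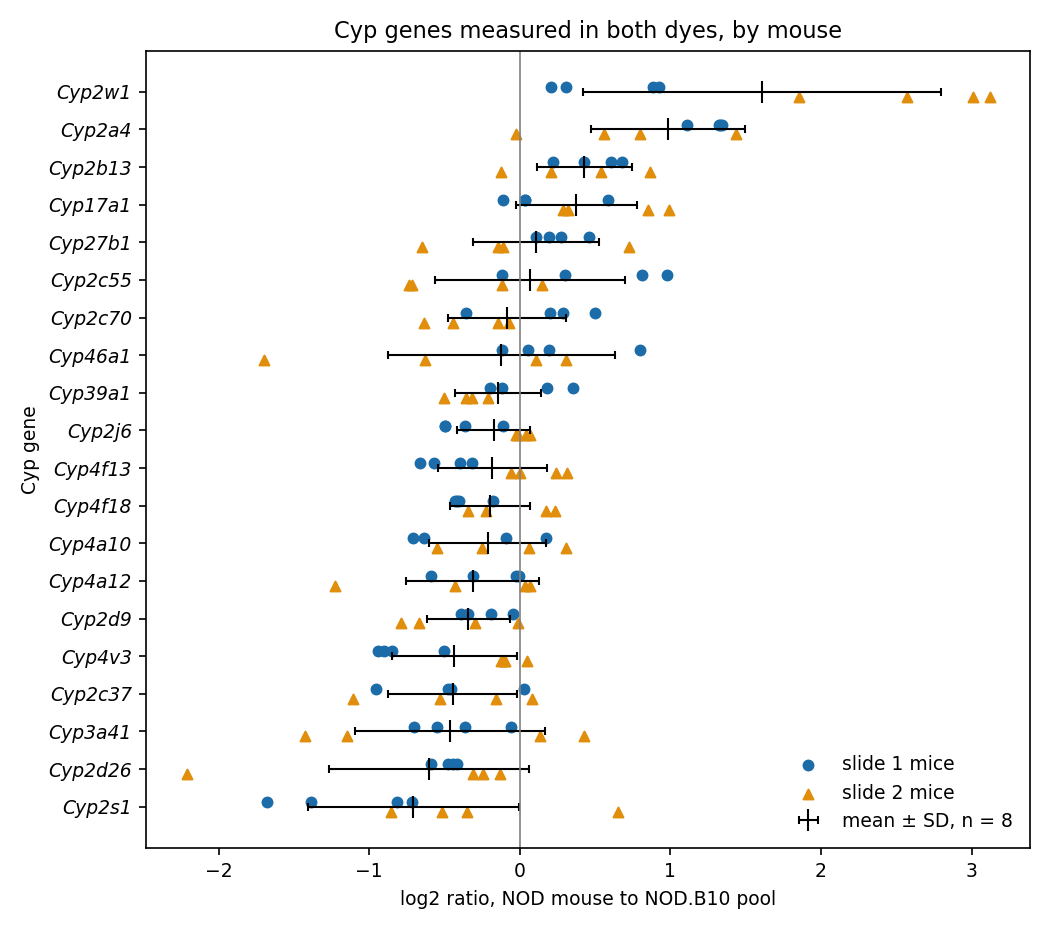
Log2 ratio of NOD to the NOD.B10 pool for the 20 *Cyp* genes measured in both dyes, 1 point per mouse (circles, slide 1; triangles, slide 2), with the mean and SD over 8 mice in black. *Cyp2w1* lies above 0 in all mice with the slides apart, and for most other genes the points of the 8 mice fall on both sides of 0.

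The slides also parted for 4 other genes of the 20. *Cyp4v3* had a mean of -0.80 on the first slide and -0.07 on the second, *Cyp4f13* of -0.49 and 0.12, and *Cyp2j6* of -0.37 and 0.02. *Cyp39a1* went the other way, with 0.06 and -0.35. In all 5 genes the mice of the slides did not overlap, and the exact two-sided permutation test of 4 against 4 arrays gave p = 0.0286, the smallest that 70 splits allow, or 0.114 after adjustment over the 20 genes. Of all 9543 genes measured in both dyes, 21.6% did not overlap between slides, so 5 of 20 is near the background. Each slide held different mice, so slide and mouse cannot be told apart.

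Some genes varied in the pool channel itself, which is labelled as the same pool on every array. For *Cyp2c55*, a *Cyp2c* gene of the gut, green signals were 238 to 474 on the arrays of replicates 1 to 6 and 118 and 28.1 on those of replicates 7 and 8. Red followed, with 264 to 828 on the first 6 and 70.8 and 17.2 on the last pair, so that the ratio stayed between -0.74 and 0.98. This grouping of arrays was chosen after the values were seen, so the counts below are given without a test. Of the 54 *Cyp* genes with green signal, 10 (18.5%) had a green signal on both of these arrays below that on all other arrays and at least 1.5-fold lower on average, against 5.53% of all genes with green signal. They were *Cyp2a4*, *Cyp2c55*, *Cyp2d9*, *Cyp2u1*, *Cyp3a41*, *Cyp46a1*, *Cyp4a10*, *Cyp4a12*, *Cyp4a14* and *Cyp4f15*. For *Cyp4a12*, a fatty acid hydroxylase, the mean green signal of replicates 7 and 8 was 0.298 of that of replicates 1 to 6 and the mean red signal 0.242 of it. The same ratios were 0.435 and 0.302 for *Cyp2d9*, and 0.395 and 0.208 for *Cyp4a14*. Among the 20 genes in both dyes, 5 (25%) were lower in this way in both dyes at once, against 4.19% of all such genes, and these were *Cyp2a4*, *Cyp2c55*, *Cyp2d9*, *Cyp3a41* and *Cyp4a12*. The median gene in both dyes had a green signal on these arrays at 0.852 of the others. Whether the pool was labelled once or anew for each array is not given in the sources used here.

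**Figure D5:**
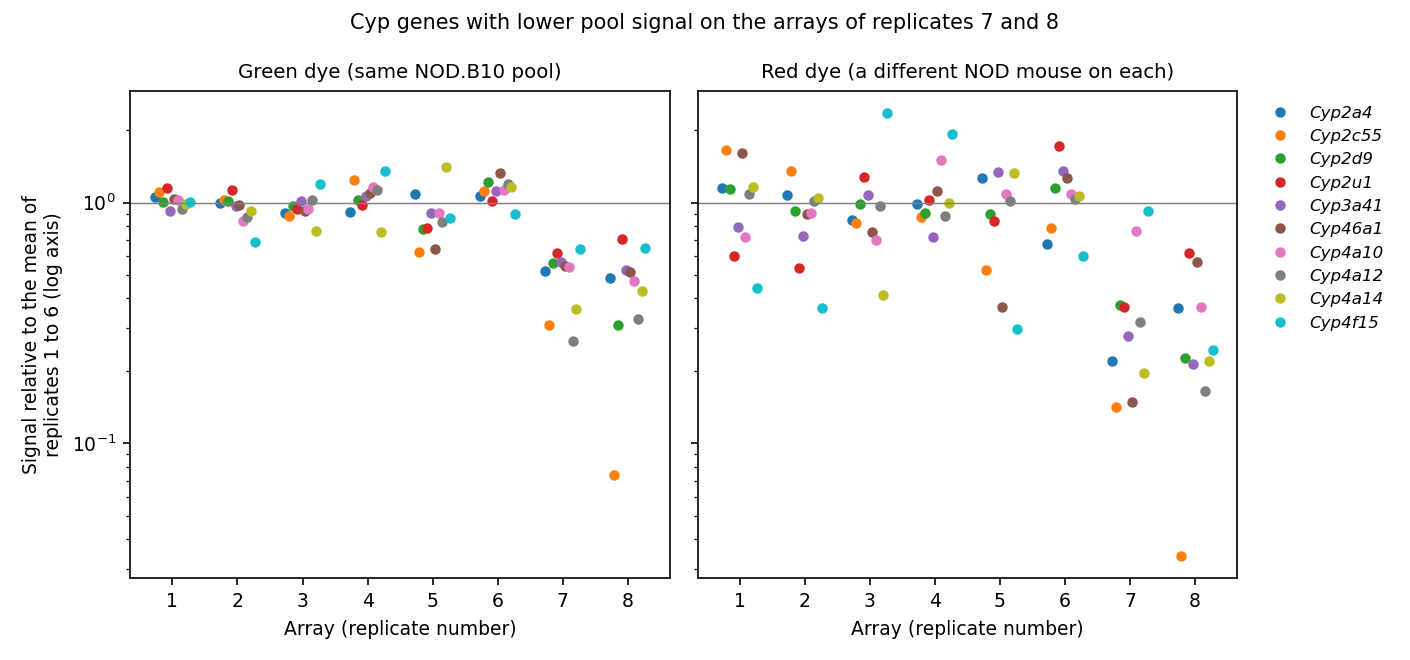
Signal of 10 *Cyp* genes on each array relative to the mean of replicates 1 to 6 (log axis, ratio without unit), in the green channel (NOD.B10 pool, left) and the red channel (a different NOD mouse on each array, right). For each gene the green points of replicates 7 and 8 lie below its green points of replicates 1 to 6, and the lowest is *Cyp2c55* in replicate 8.

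Among the genes seen only in green, *Cyp4f15* and *Cyp26b1* lay above the pool where red was not a stand-in and were listed at 0 where it was. *Cyp4f15*, another member of the *Cyp4f* cluster, had green signals of 44.4 to 94.1 and red signals of 89.8, 191 and 869 at the lowest, median and highest. Its mean log2 ratio was 1.72 (SD 1.31, limma adjusted p = 0.0315), with 6 mice between 1.23 and 3.39 and 2 listed at 0. In these 2 mice red was a stand-in, so their ratio was not measured. Red was well above background on 2 arrays. *Cyp26b1*, a retinoic acid hydroxylase, was above the pool in 5 mice and listed at 0 in 3, where red was a stand-in. It had red signals of 88.0 to 813, well above background on 3 arrays, and a mean of 1.07 (SD 1.11, limma adjusted p = 0.0845). The highest value of both genes was in replicate 3. *Cyp26a1*, the other retinoic acid hydroxylase, was below the pool in 7 mice at a mean of -0.54 (limma adjusted p = 0.0723).

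All *Cyp4f* genes on the array but *Cyp4f18*, with *Cyp39a1* and *Cyp1b1*, lie on chromosome 17, where the strains differ at the H2 complex by design. On mm8 the *Cyp4f14*, *Cyp4f13*, *Cyp4f15* and *Cyp4f16* probes lie 963, 943, 1164 and 1320 kb proximal to the *H2-K1* probe. Their log2 ratios were -2.59, -0.18, 1.72 and 0.47, and of these only *Cyp4f14* passed the test. *Cyp39a1* lies 9607 kb distal and was at -0.15, and *Cyp1b1* lies 46009 kb distal and was at 0.02. How far the H2b segment reaches was not tested, and sequence differences between the strains under a probe were not tested.

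Further genes seen only in green did not pass the test on the deposited scale. *Cyp19a1*, the aromatase that makes estrogens, was seen only in green at 44.6 to 68.1, and its ratio averaged 0.56 (SD 0.904, limma adjusted p = 0.246) with a range of -0.50 to 2.33. *Cyp24a1*, which breaks down vitamin D, was at -0.25, with replicate 5 at 1.26 and the others between -0.89 and 0. Its red signal was well above background on no array and a stand-in on 6. *Cyp27a1*, a sterol hydroxylase, was at 0.04 with a range of -1.25 to 2.44. *Cyp20a1*, a P450 of unassigned function, had a green signal of 367 to 560 and a red signal of 147 to 658, at a mean of -0.30 (SD 0.650), with replicates 7 and 8 at -1.22 and -1.32 and the others between -0.34 and 0.30. After median centering it was at -1.21 and called lower (limma adjusted p = 0.00708). *Cyp1b1*, a steroid and xenobiotic hydroxylase, was at 0.02, with the log ratio listed at 0 in 4 mice. Among other genes seen only in green, *Cyp2d10* was at -0.46, *Cyp4a14* at -0.38, *Cyp4b1* at -0.27, *Cyp2b19* at -0.04 and *Cyp4f16* at 0.47, and none of them passed the test.

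In the class with neither dye, 9 of 17 genes were tested and their median log2 ratio was 0. It held *Cyp1a1* and *Cyp1a2*, the targets of the dioxin receptor, *Cyp7a1* and *Cyp8b1* of bile acid synthesis, and *Cyp11a1* and *Cyp11b2* of adrenal steroid synthesis. For *Cyp8b1*, *Cyp11a1*, *Cyp2g1* and *Cyp2r1* all 8 log ratios were listed at 0. Their red signal was a stand-in on all 8 arrays, so the ratio of the strains was not measured for these genes. The 8 genes that were not tested were *Cyp1a1*, *Cyp2a12*, *Cyp2c38*, *Cyp2c54*, *Cyp2r1*, *Cyp3a25*, *Cyp4a12b* and *Cyp8b1*, and all 8 belonged to this class.

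Genes that supply P450 enzymes with electrons and heme, and genes of related pathways, were read from lists on the same arrays. All 11 electron transfer genes on the array were measured in both dyes (44.2% of all genes on the array), none was called, and their median log2 ratio was -0.10, beside -0.08 for all genes. *Por*, the reductase that serves the microsomal P450 enzymes, was at 0.06. Of 9 heme synthesis genes 8 were in both dyes, 0 were called and the median was -0.17, with *Alas1*, the first enzyme of the pathway, at -0.27. Among 20 tested regulators 0 were called, with a median of -0.11, and the bile acid receptor gene *Nr1h4* missed the limit at -1.71 (limma adjusted p = 0.0104). Of 21 tested genes for other oxidizing and hydrolyzing enzymes 2 were called lower (1.3% of all genes), the esterase gene *Es1* at -3.25 and the aldehyde oxidase gene *Aox1* at -1.33. With normexp and loess 0 of these 21 were called lower, and with red required to be well above background 0 of the 11 tested. Of 32 tested conjugation genes 0 were called, with a median of -0.30. On the deposited scale these lists hold 0 genes called higher. After median centering 5 conjugation genes and 1 regulator were called higher, and 5 conjugation genes, 1 regulator and 1 of the other oxidizing and hydrolyzing enzymes lower, beside 17.8% of all genes higher and 5.09% lower under that setting.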

How the data were processed

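RNA of each NOD mouse (Cy5, red) and of the NOD.B10 pool (Cy3, green) was hybridized on Agilent 4x44K two-color arrays, 4 on each of 2 slides. The files deposited by the authors hold, per spot, a log10 ratio and background-corrected, dye-normalized red and green signal intensities, extracted with Agilent Feature Extraction 10.7.3.1 (probe positions on mm8). The deposited log10 ratio was converted to log2 and spots of a probe were averaged. Where a dye did not exceed background the software wrote a stand-in value, and for the *Cyp* genes every log ratio was 0 where both dyes, or a red value not below green, were stand-ins. The deposited per-spot p-values were not used.

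Gene-annotated probes that reached a red signal of 25 on no fewer than 4 of 8 arrays were tested against 0 with limma 3.58.1 (R 4.3.3), with Benjamini-Hochberg adjustment over all of them and a call at 2-fold and adjusted p below 0.01. The p-values set the mean log2 ratio against its spread over 8 arrays, each with a different mouse and the same single pool. That spread holds differences between mice and technical differences between arrays. Where red was a stand-in, as on all 8 arrays for *Cyp2f2*, the red part of the spread comes from stand-in values and not from measured NOD signal. The script was tested on simulated data. The number of arrays limits the precision, since arrays give no counts. Named genes were *Cyp2e1*, those in both dyes or called, the 10 brightest in green among those seen only in green, and the brightest of each remaining family, and other genes named were chosen after their values were seen. The members, gene lists, motifs and tests were chosen with earlier results of these data known. Alternatives covered the statistic, filters, normalization, slide, probes, limits and each mouse left out. Exact permutation tests used scipy 1.17.1, and transcripts were compared with BLAST 2.17.0. No human sample of the study was used here.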

Additional observations from a re-analysis of the deposited data

Results flagged for a closer look

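Of 39 named *Cyp* genes checked, 3 had a mouse far from the other 7 by Dixon's criterion for the gap to the nearest value, and chance gives such a mouse in about 1 in 20 groups. *Cyp2d26* was at -2.21 in replicate 8, where the other mice lay between -0.59 and -0.13. *Cyp24a1* was at 1.26 in replicate 5, with the others between -0.89 and 0, and its red signal was well above background on no array and a stand-in on 6. *Cyp11b2* was at -0.41 in replicate 2 and listed at 0 in the other 7, and its red signal was a stand-in on all 8 arrays.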

How the results depend on the processing

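The 6 genes called lower became 0 with red required well above background on at least 4 arrays and 0 with normexp and loess, and 3 to 8 when each mouse was left out (3 without replicate 1, 2 or 4). The count called higher, 0, became 1 with that red filter, 11 after median centering, 6 with the ratio of processed signals, 1 with the slide as a covariate, 2 at an adjusted p below 0.05, 1 at 1.5-fold, and 0 to 1 when each mouse was left out (1, *Cyp2a4*, without replicate 7). Over all genes, 72 called higher and 239 lower became 3272 and 936 after centering and 1928 and 403 with processed signals. They became 79 and 33 with that red filter, 42 and 18 with normexp and loess, and 88 and 271 with the slide as a covariate. With each mouse left out, 42 to 65 genes were called higher and 105 to 172 lower. The counts over all genes at an adjusted p below 0.05 or at 1.5-fold are not given. The median log2 ratio of the tested *Cyp* genes was 0.042 after centering and -0.034 with normexp and loess.

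The sign turned after centering for *Cyp2b19* (0.042), *Cyp2d9* (0.00089), *Cyp2j6* (0.10), *Cyp4a10* (0.32), *Cyp4a12* (0.10), *Cyp4a14* (0.029), *Cyp4f13* (0.093), *Cyp11b2* (1.63), *Cyp17a1* (-0.43), *Cyp24a1* (0.60), *Cyp27b1* (-0.51) and *Cyp46a1* (0.34). With normexp and loess it turned for *Cyp1b1* (-0.023), *Cyp2c37* (0.011), *Cyp2d9* (0.0071), *Cyp2j6* (0.11), *Cyp3a41* (0.043), *Cyp4a10* (0.061), *Cyp4a12* (0.0034), *Cyp4a14* (0.012), *Cyp4b1* (0.085), *Cyp4f13* (0.092), *Cyp17a1* (-0.40), *Cyp19a1* (-0.049), *Cyp27b1* (-0.050) and *Cyp46a1* (0.020). With processed signals it turned for *Cyp11b2* (0.97). On another probe it turned for *Cyp1b1* (-0.17), *Cyp2a4* (-1.47 and -1.24), *Cyp3a44* (0.29) and *Cyp27b1* (-0.063). With each mouse left out, means ran from -0.025 to 0.064 for *Cyp1b1*, from -0.12 to 0.088 for *Cyp2b19*, from -0.063 to 0.18 for *Cyp2c55* and from -0.25 to 0.10 for *Cyp46a1*. The causes were not tested. Of the called genes, *Cyp4f14*, *Cyp2f2*, *Cyp7b1* and *Cyp3a11* stayed below 0 under every setting in which they were tested. So did the brightest probes of *Cyp2c40* and *Cyp3a44*, while their second probes were at 0 and 0.29. None of these genes could be tested with red required well above background. *Cyp3a44* was tested in 4 of the 8 fits that left a mouse out. No paired analysis was possible because all arrays belong to 1 group set against the same pool. Red was well above background on at least 4 arrays for 20 of the 71 genes, which limits the precision for the others.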
